A study of Homo sapiens with 4 samples.

Results

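The genes described here are 10 genes for enzymes that remove oxidized guanine from nucleotides and DNA and for proteins that bind oxidized RNA. They were chosen by name: NUDT1, NUDT5, OGG1, MUTYH, APEX1, PCBP1, PCBP2, YBX1, HNRNPD and HNRNPC. All 10 were found among the 58243 genes of each table, and all 10 passed the filter on low counts that left 14759 genes for testing. The cells were SH-SY5Y, an established, cloned human neuroblastoma line. The control group comprised 2 libraries, a and b, of untreated cells (agent: none). The SNP group comprised 2 libraries, a and b, of cells exposed to sodium nitroprusside (SNP), a nitric oxide donor, for 8 h, and the labels call this group the oxidized state. The protocol speaks of cells differentiated with retinoic acid and of several SNP doses, but it does not tie either to these libraries, so the dose behind the SNP libraries and the differentiation of both groups are unknown. The labels do not say whether a and b were separate cultures, so p-values measure the spread between these libraries, which may be technical.

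Guanine is the base most easily oxidized, and its main product, 8-oxoguanine, pairs with adenine as well as with cytosine. Cells meet it at separate levels: hydrolases destroy oxidized guanine nucleotides before they are built into nucleic acids, glycosylases and an endonuclease start the repair of oxidized DNA, and RNA-binding proteins recognise oxidized RNA, which is not repaired but degraded. The comparison of SNP with control libraries gives the transcript levels of these genes in the labelled oxidized state. It measures no oxidation of any base, and in bulk RNA a change in the mix of cells and a change in RNA per cell cannot be told apart.

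The libraries held between 5613144 and 8056550 counts, and a floor of 3 counts corresponded to between 0.372 and 0.534 counts per 1000000 counts (CPM), counting error only. Of the markers of sympathetic neuroblasts, 11 of 12 averaged over 5 CPM, and TH was listed at 0 in all 4 libraries. The summed level of these markers was 3509 to 3643 CPM in control and 2818 to 3064 CPM under SNP, with 3 called higher and 5 lower of 11 tested. Astrocyte and microglia markers summed to at most 0.534 CPM, and AQP4, SLC1A3, AIF1 and PTPRC were at 0 throughout. Mesenchymal markers summed to 239 to 246 CPM in control and 240.3 to 244.8 CPM under SNP, with 1 called higher and 2 lower of 5 tested. Mitochondrial transcripts made up 4.71 ± 0.399% of control counts and 2.85 ± 0.193% of SNP counts (SD, n = 2 each); the part of this shift in the results below was not tested.

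The upstream sequences of YBX1 and HNRNPC are shown because both genes encode abundant RNA-binding proteins whose SNP values lay above control, and those of PCBP1 and PCBP2 because the values of this related pair lay below control. RefSeq held an upstream window for all 10 genes. The stretches come from RefSeq (GRCh38.p14), run 5′ to 3′ on the strand of the gene and end before any annotated untranslated region. Capitals mark 6 motifs searched on both strands, whose letters are given below. The YBX1 stretch is chr1:42682168-42682417 on the plus strand, from -250 to -1 relative to the RefSeq start. The HNRNPC stretch is chr14:21269495-21269692 on the minus strand, from -250 to -53. The PCBP1 and PCBP2 stretches, chr2:70087418-70087453 and chr12:53452038-53452073 on the plus strand, are the most alike 36-base windows of the pair and match at 30 of 36 bases.
YBX1: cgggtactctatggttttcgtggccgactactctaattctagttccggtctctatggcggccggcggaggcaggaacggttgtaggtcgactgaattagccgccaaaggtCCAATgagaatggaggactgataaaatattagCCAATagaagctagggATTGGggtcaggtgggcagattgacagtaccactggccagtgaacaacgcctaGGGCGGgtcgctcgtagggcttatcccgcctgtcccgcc
HNRNPC: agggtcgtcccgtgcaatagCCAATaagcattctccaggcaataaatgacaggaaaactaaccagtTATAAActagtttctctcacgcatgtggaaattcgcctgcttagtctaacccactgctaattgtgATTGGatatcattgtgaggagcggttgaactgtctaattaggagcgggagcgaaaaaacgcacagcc
PCBP1: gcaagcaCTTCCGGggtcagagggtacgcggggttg
PCBP2: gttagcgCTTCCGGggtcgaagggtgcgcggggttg

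The YBX1 stretch holds 3 CCAAT boxes and a GC box, and the HNRNPC stretch 2 CCAAT boxes and a TATA box. Both PCBP stretches carry an ETS site at the same place in the window. Motifs were counted over the 250 bases before the RefSeq start. For NUDT1, NUDT5 and HNRNPD this window lies wholly inside the gene coordinates given below. For OGG1, MUTYH, APEX1, PCBP1 and HNRNPC it lies partly inside them, so matches in these windows need not lie upstream of the gene. The CCAAT box was found in 5 of the 10 genes (OGG1, MUTYH, APEX1, YBX1 and HNRNPC) and in 33.0% of 27305 promoters. The GC box, searched as GGGCGG, was found in 6 of the 10 (OGG1, PCBP1, PCBP2, YBX1, HNRNPD and HNRNPC) and in 42.3% of promoters. The ETS site, searched as CCGGAAG, was found in 4 (NUDT5, PCBP1, PCBP2 and HNRNPD) against 8.82% of promoters. The E-box, searched as CACGTG, was found in 3 (NUDT1, APEX1 and HNRNPD) against 6.49%, and APEX1 held it at -105, -44 and -23. The core of the antioxidant response element, searched as TGACNNNGC, was found in NUDT5 and PCBP1 against 11.0% of promoters. The TATA box, searched as TATAAA, was found in HNRNPD and HNRNPC against 11.1%. Neighbouring GC boxes overlap in PCBP1. A match describes letters only.

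Across the 10 genes, 4 differed between the groups (edgeR quasi-likelihood test, Benjamini-Hochberg adjusted over all 14759 genes, threshold 0.05): HNRNPD and YBX1 rose, and PCBP1 and PCBP2 fell. All 4 encode RNA-binding proteins. The RNA-binding group also had the highest counts and the smallest standard errors of the 10. OGG1 and MUTYH were not called at log2 fold changes of -0.39 (SE 0.152) and 0.42 (SE 0.180), while PCBP1 was called at -0.42 (SE 0.113). The part of counting depth in this split was not tested. None of the 5 genes for nucleotide hydrolases and DNA repair enzymes passed the quasi-likelihood test. Its unadjusted p-value was under 0.05 for 4 of these 5 (NUDT5, OGG1, MUTYH and APEX1). The share of all genes under 0.05 without adjustment was not counted and is at least 26.2%, the share called after adjustment. DESeq2's Wald test and limma-voom also called 0 of these 5. The background was 26.2% of all genes called, 13.6% higher and 12.6% lower, against which the 4 of 10 is read. In 9 of the 10 genes the groups did not overlap, 5 with the SNP values above control and 4 below; among all genes tested the groups did not overlap in 64.0%, with SNP above in 31.7% and below in 32.3%. The exception was NUDT1. The median log2 fold change of the 10 genes was 0.081, beside -0.0042 for all genes tested.

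**Figure D1:**
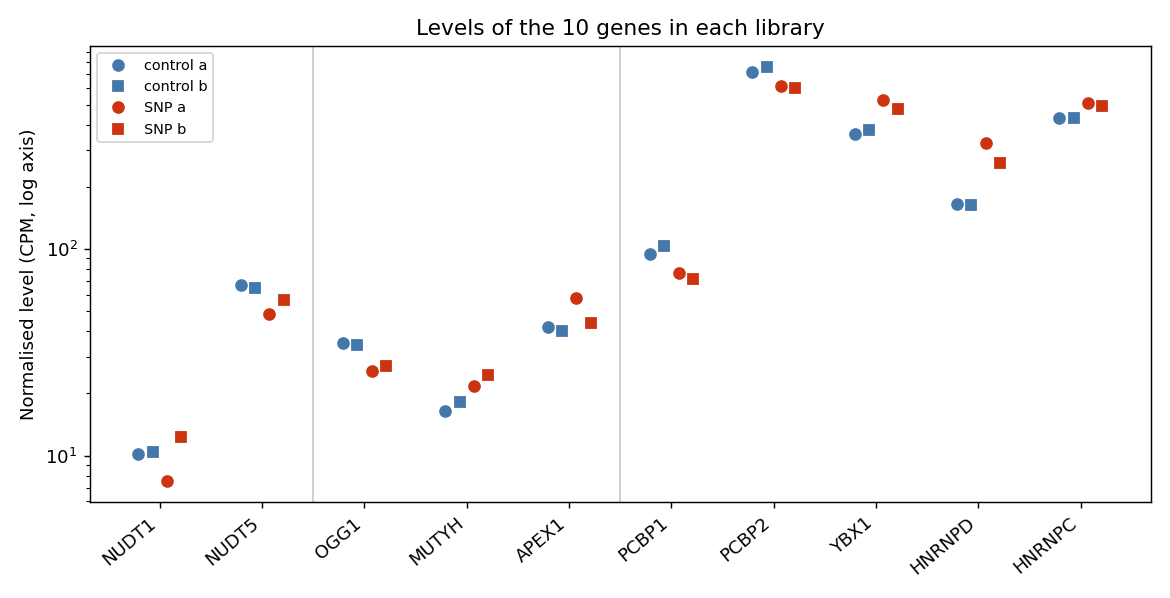
Normalised level (CPM, logarithmic axis) of each gene in the 4 libraries; blue is control, red is SNP, circles are libraries a and squares libraries b, and vertical lines part the nucleotide hydrolases, DNA repair enzymes and RNA-binding proteins. The SNP points of HNRNPD and YBX1 lie above, and those of PCBP1 and PCBP2 below, both control points, while the NUDT1 points of SNP lie on either side of control.

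The first line of defence is the nucleotide pool. NUDT1, also called MTH1, hydrolyses 8-oxo-dGTP so that it cannot be built into DNA. NUDT1 (ENSG00000106268; chromosome 7, 2242222 to 2251146, plus strand; here and below on GRCh38, from GENCODE 29) had 66 and 59 counts in control a and b and 60 and 95 in SNP a and b, or 10.2 and 10.4 CPM against 7.53 and 12.3 CPM. The SNP libraries lay on either side of control, and the log2 fold change of -0.057 (SE 0.260) did not pass, with an adjusted p-value of 0.900 (edgeR, quasi-likelihood). It was the most weakly counted of the 10 genes. Leaving out SNP a gave 0.25 and leaving out SNP b gave -0.45, so no direction can be given.

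NUDT5 hydrolyses oxidized guanosine diphosphates and ADP-ribose. NUDT5 (ENSG00000165609; chromosome 10, 12165325 to 12196144, minus strand) measured 66.6 and 64.8 CPM in control and 48.2 and 56.4 CPM under SNP. Both SNP values lay below both control values. The log2 fold change of -0.33 (SE 0.126) had an adjusted p-value of 0.0571 in the quasi-likelihood test of edgeR and did not pass. NUDT5 passed in 4 of 14 alternative fits, among them a filter at a mean of 50 counts, with an adjusted p-value of 0.0478 (edgeR). It did not pass with RPKM-implied read totals (adjusted p-value 0.239, edgeR) or in DESeq2 (0.167, Wald test). The log2 fold change was -0.44 without SNP b and -0.22 without SNP a. In such fits, here and below, the library left alone in its group is assumed to vary like those of the other group. NUDT5 shares 387 exonic bases with SEC61A2 and 180 with CDC123 on the opposite strand, 11.4% of its exons.

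Among the DNA repair enzymes the glycosylase levels lay on opposite sides of control. OGG1 cuts 8-oxoguanine out where it faces cytosine, and MUTYH removes the adenine put in opposite 8-oxoguanine. OGG1 (ENSG00000114026; chromosome 3, 9749944 to 9788219, plus strand) measured 34.9 and 34.2 CPM in control and 25.6 and 27.0 CPM under SNP. Its log2 fold change was -0.39 (SE 0.152), adjusted p-value 0.0607 (edgeR), and it did not pass. The SNP values lay below control without overlap. In GENCODE 29, OGG1 shares 2180 exonic bases with CAMK1 and 356 with TADA3 on the opposite strand, together 2536 of its 8733 exonic bases. The counts and TPM of OGG1 imply a much shorter gene model than those 8733 bases. Its overlaps, and its base composition and offset values below, may therefore not describe the model that was counted. TADA3 itself fell, at a log2 fold change of -0.41 and an adjusted p-value of 0.0370 (edgeR). The use of strand in the counting is not stated.

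MUTYH (ENSG00000132781; chromosome 1, 45329163 to 45340470, minus strand) measured 16.5 and 18.1 CPM in control and 21.6 and 24.6 CPM under SNP. Both SNP values lay above both control values. The log2 fold change of 0.42 (SE 0.180) had an adjusted p-value of 0.0899 in the quasi-likelihood test of edgeR and did not pass. MUTYH shares 552 exonic bases with TOE1, whose log2 fold change was -0.33 (adjusted p-value 0.271, edgeR).

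APEX1 encodes the endonuclease that cuts the DNA backbone at the abasic site left by a glycosylase. APEX1 (ENSG00000100823; chromosome 14, 20455191 to 20457772, plus strand) measured 41.7 and 40.2 CPM in control and 58.1 and 43.8 CPM under SNP. SNP a stood well above control and SNP b just above it. The log2 fold change of 0.32 (SE 0.146) did not pass, with an adjusted p-value of 0.116 (edgeR). Without SNP b it was 0.51 with an adjusted p-value of 0.0070, and without SNP a it was 0.10 with 0.711 (edgeR), so the value rests on SNP a.

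The RNA-binding proteins were the most abundant of the 10. YBX1 encodes a cold shock domain protein that packages messenger RNA and was found to bind RNA containing 8-oxoguanine. YBX1 (ENSG00000065978; chromosome 1, 42682427 to 42702349, plus strand) was counted 2335 and 2122 times in control and 4178 and 3693 times under SNP, or 359 and 376 CPM against 525 and 478 CPM. The groups did not overlap. YBX1 rose by a log2 fold change of 0.45 (SE 0.0916), 1.36-fold, with an adjusted p-value of 0.0011 in the quasi-likelihood test of edgeR. It passed in all 14 alternatives, in which the log2 fold change ranged from 0.38 to 0.61 and the adjusted p-value was at most 0.0149. Of its 75-base stretches, 18.5% recur in the processed pseudogenes YBX1P1, YBX1P2 or YBX1P10, each of which had 0 counts.

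HNRNPD, also called AUF1, binds AU-rich elements and oxidized RNA and speeds the decay of both. HNRNPD (ENSG00000138668; chromosome 4, 82352498 to 82374503, minus strand) was counted 1078 and 922 times in control and 2592 and 2020 times under SNP, or 166 and 163 CPM against 325 and 261 CPM. Both SNP values lay far above control, though they differed from each other more than the control values did. HNRNPD rose by a log2 fold change of 0.83 (SE 0.108), 1.78-fold, with an adjusted p-value of 1.2e-05 (edgeR, quasi-likelihood), at percentile 94.7 of all genes tested. Offsets on transcript base composition ended this call, as described below.

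HNRNPC packages nascent transcripts in the nucleus and was likewise found on oxidized RNA. HNRNPC (ENSG00000092199; chromosome 14, 21209136 to 21269494, minus strand) measured 428 and 431 CPM in control and 509 and 490.1 CPM under SNP. The groups did not overlap, but the shift was small: the log2 fold change was 0.22 (SE 0.0883) and the adjusted p-value 0.0728 (edgeR), which did not pass. Its pseudogenes HNRNPCP2 and HNRNPCP4, which share 3.40% of its 75-base stretches, had 0 counts.

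PCBP1 and PCBP2 are poly(C)-binding proteins with KH domains; PCBP1 binds heavily oxidized RNA, and both also carry iron to ferritin. PCBP1 (ENSG00000169564; chromosome 2, 70087454 to 70089203, plus strand) is a gene of 1 exon. It measured 94.1 and 103.6 CPM in control and 76.3 and 71.6 CPM under SNP. PCBP1 fell by 0.42 on the log2 scale (SE 0.113), with an adjusted p-value of 0.0093 in the quasi-likelihood test of edgeR. Its antisense neighbour PCBP1-AS1 covers 52.2% of its exonic bases and shares 44.5% of its 75-base stretches. PCBP1-AS1 measured 61.9 ± 11.9 CPM in control and 78.4 ± 6.50 CPM under SNP (SD, n = 2 each), so the division of reads between the pair is uncertain.

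PCBP2 (ENSG00000197111; chromosome 12, 53452102 to 53481162, plus strand) was counted 4647 and 4306 times in control and 4913 and 4637 times under SNP, or 715 and 762 CPM against 617 and 599.6 CPM. The counts were similar because the SNP libraries were deeper, and the normalised levels did not overlap. PCBP2 fell by 0.28 on the log2 scale (SE 0.0867), with an adjusted p-value of 0.0206 (edgeR, quasi-likelihood). It shares 1494 exonic bases with MAP3K12 on the opposite strand. Without control b neither gene of the pair passed, with log2 fold changes of -0.35 for PCBP1 and -0.23 for PCBP2 and adjusted p-values of 0.160 and 0.171 (edgeR), and PCBP2 did not pass without SNP b, at 0.0665. With the read totals implied by the RPKM column the adjusted p-values were 0.0976 and 0.385 (edgeR). Full offsets on transcript base composition, described below, ended both calls and turned the log2 fold changes to 0.15 and 0.012.

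The 10 genes differed in the base composition of their transcripts. Across 14724 genes tested, which share libraries and are not independent, the Spearman correlation of the log2 fold change with guanine minus cytosine content was 0.480. Between replicates the same correlation was -0.313 for SNP b over a and -0.032 for control b over a. HNRNPD, the gene with the largest rise of the 10, has 26.9% guanine and 17.8% cytosine, a difference of 9.10 percentage points at percentile 99.6 of the genes tested. PCBP1 and PCBP2, which fell, have -4.46 and -2.35 points, at percentiles 4.46 and 12.7. APEX1 has 5.14 points and OGG1 -1.17 points. NUDT1 departs from this order, with 7.26 points at percentile 98.8 and a fold change near 0. YBX1 has 1.68 points, at percentile 60.1, close to NUDT5 with 1.04, whose level lay on the other side of control.

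**Figure D2:**
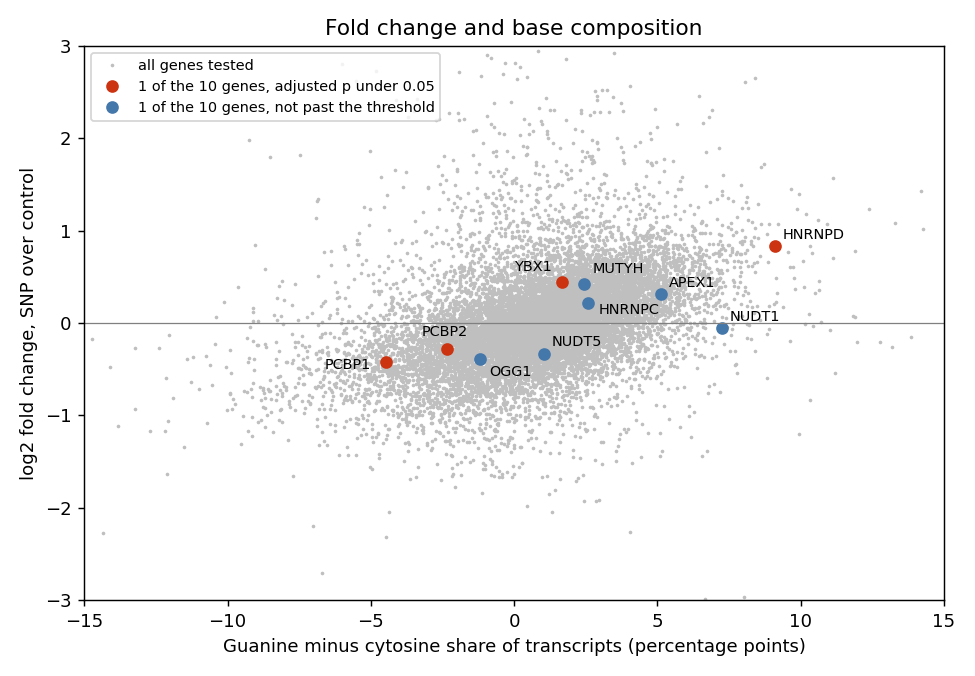
Each grey point is 1 of 14724 genes tested, with guanine minus cytosine share of its transcripts (percentage points) on the horizontal and log2 fold change of SNP over control on the vertical axis; red points are those of the 10 genes that passed the test, blue those that did not, and 65 genes lie outside the axes. HNRNPD sits at the guanine-rich end with 0.83 and PCBP1 towards the cytosine-rich end with -0.42, while YBX1 lies near the middle with 0.45.

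When per-library offsets on gene length, GC content and guanine minus cytosine content were added, YBX1 was the 1 gene of the 10 that passed; of all 14759 genes, 2751 (18.6%) were called in that fit, 10.2% higher and 8.44% lower. Its log2 fold change was then 0.56 with an adjusted p-value of 3.0e-04 in the quasi-likelihood test of edgeR. HNRNPD went to 0.056 with an adjusted p-value of 0.642, PCBP1 to 0.15 with 0.284 and PCBP2 to 0.012 with 0.918 (edgeR). APEX1 went from 0.32 to 0.065, NUDT1 from -0.057 to -0.53 and OGG1 from -0.39 to -0.19, while MUTYH was at 0.34 and NUDT5 at -0.31, none past the threshold. With length and GC offsets alone, in which 28.5% of all genes were called, HNRNPD, YBX1 and PCBP2 passed, PCBP1 did not (-0.23, adjusted p-value 0.0745), and APEX1, MUTYH and NUDT5 passed as well, at 0.45, 0.55 and -0.38 with adjusted p-values of 0.0234, 0.0162 and 0.0223 (edgeR). By construction such offsets remove every difference that runs with composition, whatever its source. The part of base composition in the levels of these genes was not tested beyond these fits.

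**Figure D3:**
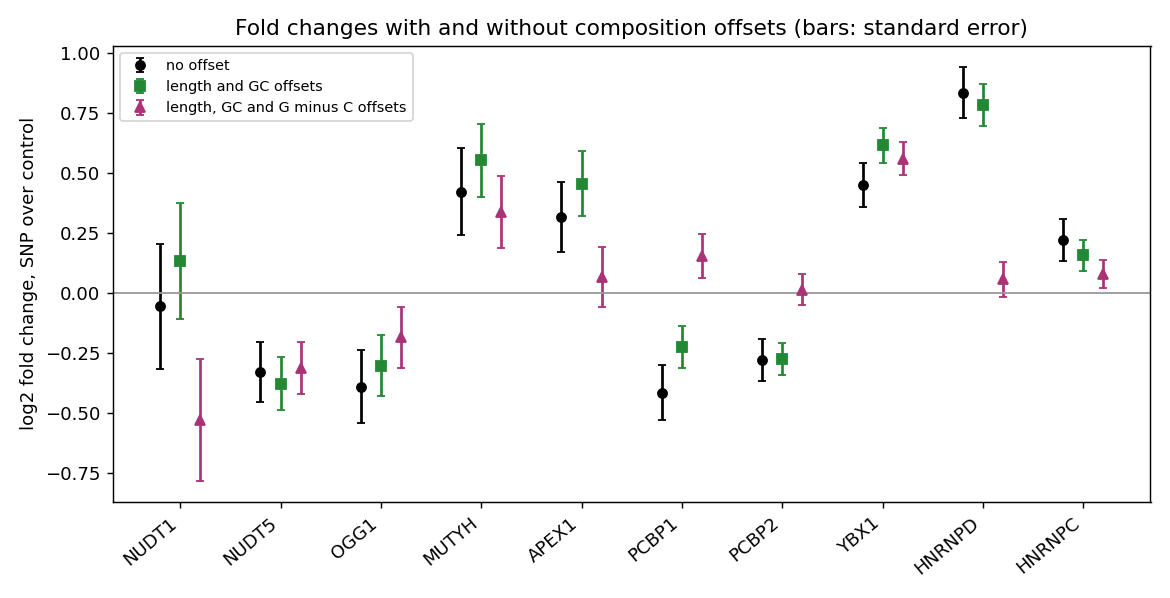
Log2 fold change of SNP over control for each gene without offsets (black circles), with offsets on length and GC (green squares) and with guanine minus cytosine added (purple triangles); bars are standard errors. With the full offsets HNRNPD moves from 0.83 to 0.056 and PCBP1 from -0.42 to 0.15, while YBX1 stays between 0.45 and 0.61 in the 3 fits.

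Levels were compared between genes by deposited TPM, which is scaled per length. Except for OGG1, the implied length is that of all annotated exons merged, not of the transcripts expressed. Comparisons of levels between genes therefore depend on the annotation. In control libraries YBX1 was highest at 898 ± 40.8 TPM (SD, n = 2 here and below), followed by PCBP2 at 440 ± 26.0. HNRNPC at 277 ± 4.87 and PCBP1 at 267 ± 21.6 did not differ beyond their spread. HNRNPD (111 ± 0.288) and APEX1 (102 ± 1.24) came next, then NUDT5 (62.4 ± 0.358) and OGG1 (40.5 ± 0.0653). NUDT1 (23.2 ± 0.786) and MUTYH (20.8 ± 1.65) were lowest and differed by less than the sum of their SDs. In SNP libraries YBX1 stood at 1329 ± 44.9 TPM and PCBP2 at 393 ± 4.94. HNRNPD at 215 ± 26.3 TPM was then level with PCBP1 at 217 ± 2.67. MUTYH at 30.3 ± 3.74 and OGG1 at 33.6 ± 2.37 TPM did not differ beyond their spread.

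Ratios within a library do not depend on the scaling between libraries, but they are not corrected for base composition. OGG1 over MUTYH was 2.06 and 1.84 in control and 1.15 and 1.07 under SNP (ratio of TPM), so the ratio was lower in the SNP libraries. HNRNPC over HNRNPD was 2.47 and 2.52 in control and 1.49 and 1.79 under SNP. APEX1 over OGG1 was 2.55 and 2.51 against 4.84 and 3.46. PCBP2 over PCBP1 was 1.68 and 1.63 against 1.78 and 1.85, a small shift of 0.14 on the log2 scale. These 4 ratios did not overlap between groups, while NUDT5 over NUDT1 did, at 2.76 and 2.61 against 2.70 and 1.93. Among single genes tested, the groups did not overlap in 64.0%, and the share over other gene pairs was not counted. With 2 libraries against 2 the two-sided exact permutation test cannot go below a p-value of 0.333, which the 4 ratios reached; NUDT5 over NUDT1 gave 0.667, and adjusted over 5 ratios the values were 0.417 and 0.667 (Benjamini-Hochberg, exact permutation). With the full composition offsets the difference in log2 fold change went from -0.62 to 0.021 for HNRNPC minus HNRNPD and from 0.14 to -0.14 for PCBP2 minus PCBP1. It went from -0.81 to -0.52 for OGG1 minus MUTYH and from 0.71 to 0.25 for APEX1 minus OGG1.

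**Figure D4:**
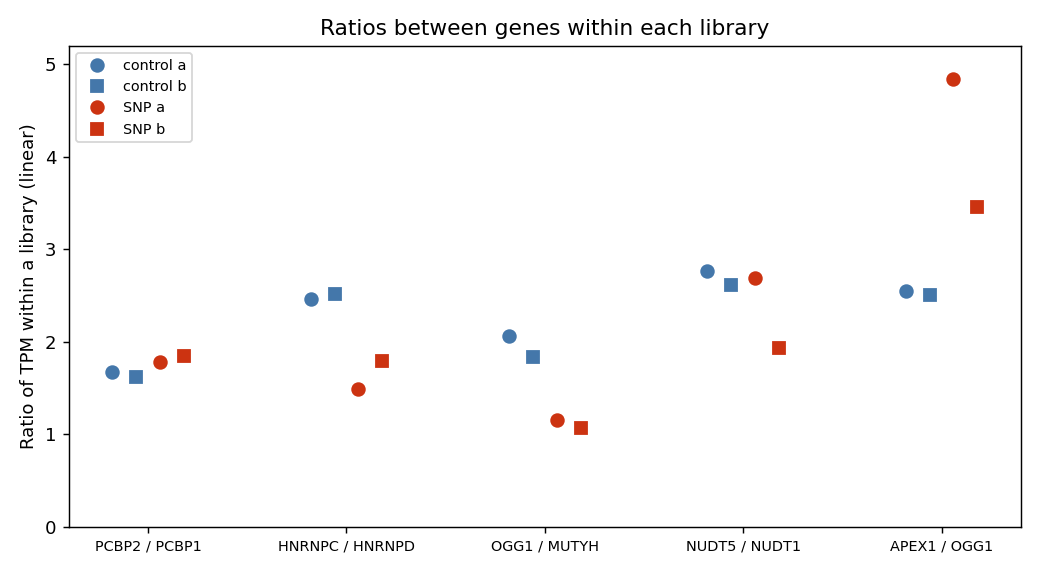
Ratio of TPM (linear axis from 0) between 2 genes within each library; blue is control, red is SNP, circles are libraries a and squares libraries b. OGG1 over MUTYH lies at 2.06 and 1.84 in control and at 1.15 and 1.07 under SNP, and HNRNPC over HNRNPD at 2.47 and 2.52 against 1.49 and 1.79.

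Genes with related roles were read from 7 lists by the same fit. Of 13 tested genes for relatives of the PCBP, YBX and HNRNP proteins or for other proteins reported to bind oxidized RNA, 7 rose and 2 fell, with a median log2 fold change of 0.35; of all genes 13.6% rose and 12.6% fell. YBX3 of this list was too weakly counted to be tested. HNRNPAB, a close relative of HNRNPD, rose by 1.37 (SE 0.131; 64.6 ± 1.77 CPM in control, 166.8 ± 36.3 CPM under SNP; SD, n = 2 each), and PCBP3 fell by 0.63. HNRNPK, a further poly(C)-binding protein, rose by 0.37, and PNPT1, a polynucleotide phosphorylase that binds oxidized RNA, rose by 0.35. The adjusted p-values were 3.1e-07, 3.2e-04, 0.0111 and 0.0336 (edgeR). In DESeq2 PNPT1 did not pass (Wald test, adjusted p-value 0.0987), while HNRNPAB, PCBP3 and HNRNPK did. HNRNPAB has 8.11 and PCBP3 -3.92 points of guanine minus cytosine. With the full composition offsets 1 gene of the list was higher (HNRNPAB, 0.81) and 2 lower (PCBP3, -0.25, and CARHSP1, -0.38), the last named after its value was seen; 10.2% of all genes were higher and 8.44% lower in that fit.

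The nucleotide pool list gave 1 rise and 1 fall among 10 genes tested (20%, beside 26.2% of all genes called), with a median of 0.020. NUDT16, which hydrolyses inosine diphosphates and removes RNA caps, rose by 1.28, from 16.3 ± 2.57 to 39.8 ± 8.36 CPM, with an adjusted p-value of 3.5e-05. DCTPP1, a pyrophosphatase for deoxycytidine triphosphates, fell by 0.83, from 15.1 ± 1.76 to 8.47 ± 0.0870 CPM, with an adjusted p-value of 0.0092 (edgeR, SD, n = 2 each). Both also passed with the full composition offsets, at 0.79 and -0.69. DCTPP1 missed the threshold in DESeq2 (Wald test, adjusted p-value 0.0587) and without control a (-0.71, adjusted p-value 0.0952, edgeR).

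Of 9 further DNA glycosylases 1 fell (11.1%, beside 26.2% of all genes called), and the median was -0.15. That gene was NEIL3, which fell by 0.47 with an adjusted p-value of 0.0464 (edgeR). NEIL1 had a log2 fold change of 0.078 and did not pass. Of 13 genes that act after the glycosylase, 2 rose and 1 fell (23.1%, beside the same 26.2%), with a median of -0.059. APTX, which clears failed ligation ends, rose by 0.75, and HMGB1, an abundant chromatin protein, by 0.68. TDP1, named after its value was seen, fell by 0.48. The adjusted p-values were 9.7e-04, 1.6e-04 and 0.0089 (edgeR). NEIL3 and HMGB1 did not pass with the full composition offsets. In that fit 1 gene acting after the glycosylase was higher (APTX, 0.39) and 2 were lower, beside 10.2% and 8.44% of all genes. The lower genes were TDP1, at -0.42, and FEN1, named after its value was seen, at -0.55 (adjusted p-value 0.0018, edgeR). NEIL3 also did not pass without control a, control b or SNP b, with adjusted p-values of 0.132, 0.206 and 0.184 (edgeR).

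Stalled ribosomes on damaged messages are cleared by rescue factors, and the messages are broken down by no-go decay. Of 13 genes listed for either role, 5 rose and 0 fell, with a median of 0.18. In the same test 13.6% of all genes rose and 12.6% fell. The rises numbered 3 with DESeq2's Wald test, 3 with RPKM-implied totals and 3 with only a count above 0 required. With limma-voom and with the replicate letter as a block they numbered 5. ASCC3, a helicase that splits collided ribosomes, rose by 1.04, from 170 ± 6.39 to 349 ± 12.6 CPM (SD, n = 2 each), with an adjusted p-value of 1.9e-07 (edgeR). GIGYF2, a translational repressor recruited to such ribosomes, rose by 0.37, and ABCE1, EIF4E2 and TTC37, named after their values were seen, by 0.31, 0.34 and 0.33. ABCE1 and EIF4E2 did not pass in DESeq2 (Wald test, adjusted p-values 0.0897 and 0.115), while TTC37 did. PELO, which opens stalled ribosomes, had a log2 fold change of -0.18 and an adjusted p-value of 0.328 and did not pass. GIGYF2 did not pass without control b, at 0.31 with an adjusted p-value of 0.169 (edgeR). With the full composition offsets ASCC3 was the 1 gene of the list called, at 0.74.

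Of 8 AU-rich element binding proteins 2 rose and 1 fell (37.5%, beside 26.2% of all genes called), with a median of -0.11. ZFP36L2 fell by 0.77, TIA1 rose by 0.29 with an adjusted p-value of 0.0499 (edgeR), and ZFP36L1, named after its value was seen, rose by 1.34 from 12 and 12 counts in control to 42 and 37 under SNP. With the full composition offsets ZFP36L2 was at -0.27 and TIA1 at 0.014, with adjusted p-values of 0.103 and 0.922 (edgeR), and neither passed. In that fit 2 genes of the list were higher and 0 lower, beside 10.2% and 8.44% of all genes. They were ZFP36L1, at 1.86, and KHDRBS1, named after its value was seen, at 0.25 (adjusted p-values 0.0051 and 0.0181, edgeR). DESeq2 gave ZFP36L1 no adjusted p-value. TIA1 also did not pass without control a, control b or SNP a, with adjusted p-values of 0.232, 0.184 and 0.384 (edgeR). Of 9 genes tied to the iron role of the PCBP proteins, 33.3% were called, beside 26.2% of all genes, and the median was -0.059. TFRC, the transferrin receptor, rose by 0.73. The ferritin subunits FTL and FTH1 fell by 0.72 and 0.54, FTH1 named after its value was seen. FTL and FTH1 have -5.92 and -6.07 points of guanine minus cytosine, and with the full composition offsets their log2 fold changes were 0.036 and 0.078, while TFRC was 0.47 and passed with an adjusted p-value of 0.0088 (edgeR). The lists were described by counts only, and no list was tested as a set.

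**Figure D5:**
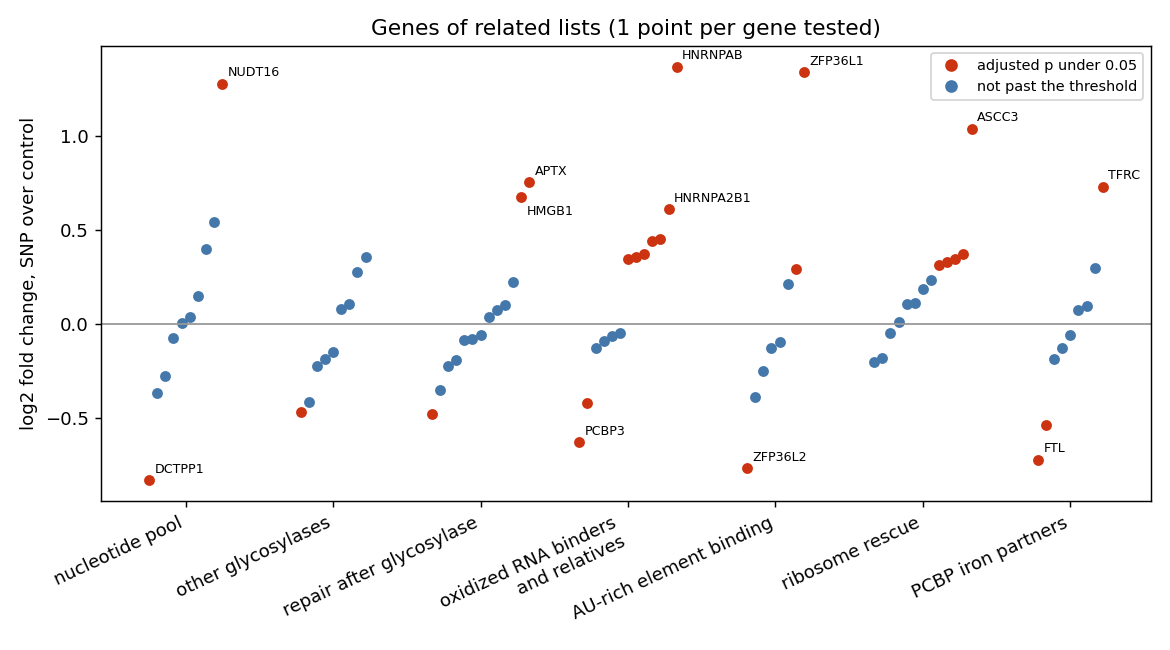
Log2 fold change of SNP over control (vertical axis) for each tested gene of 7 lists (horizontal axis), ordered within a list; red points passed an adjusted p-value under 0.05 and blue points did not. The list of oxidized RNA binders and relatives shows 7 red points above 0 and 2 below. The list for ribosome rescue and no-go decay shows 5 red points above 0 and 0 below.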

How the data were processed

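RNA of 2 control and 2 SNP libraries was compared; groups and letters come from the sample titles. The tables deposited by the authors hold whole-number read counts per gene, TPM scaled to 1000000 per library and RPKM. Per the submitters' processing notes the build was GRCh38; the aligner, counter and strand setting are not given in the sources used here. Implied gene lengths matched GENCODE 29 within 0.5% for 90.4% to 90.5% of counted genes, so positions and base composition, taken over all annotated transcripts, came from that release. OGG1 was among the genes that did not match.

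Counts were tested with edgeR 4.0.16 in R 4.3.3 (filterByExpr, minimum count 10 and total 15; TMM; quasi-likelihood test; Benjamini-Hochberg adjustment over all genes; threshold 0.05). A standard error is the absolute log2 fold change over the square root of F. CPM are TMM-scaled, except marker sums, which use total counts. Alternatives were filters (a count above 0, or a mean of 50), DESeq2 1.42.0 size factors and Wald test, total counts, RPKM-implied totals, limma-voom (limma 3.58.1), the letter as a block, lowess offsets (span 0.5, 3 iterations) and each library left out, with the one left in its group assumed to vary like the other group; RPKM ratios replaced TPM ratios.

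The 10 genes, lists and rule for names were chosen with earlier results of these data known. The rule named, per list, the 2 largest called changes at a mean of at least 5 CPM, plus NEIL1, PNPT1, HNRNPK, PELO and a further gene that is not reported here. The fit was tested on simulated counts for SNP against control. With a log2 fold change of 1 put on 197 tested genes, 85.3% of these were called among 14535. With 0.5 put on 196, 19.9% of these were called among 14511, and with no change 0 of 14534 genes were called. These simulations changed at most 200 genes, with the same dispersion for every gene and no composition trend. The data had 3861 calls and a composition trend, so the simulated shares need not hold for them. A simulated composition trend gave 1041 calls without and 0 with offsets. That trend ran on guanine minus cytosine, which the offsets fit, so its removal was built in. Whether the offsets also remove other changes was not simulated.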

Additional observations from a re-analysis of the deposited data

How the results depend on the processing

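YBX1 passed in all 14 alternatives and HNRNPD in 13, PCBP1 and PCBP2 in 10 each. The count of the 10 genes that passed, 4 in the fit described, was 2 with the read totals implied by RPKM, 1 with the offsets on length, GC and guanine minus cytosine, and between 2 and 5 with 1 library left out. With the replicate letter as a block 7 passed, with NUDT5, OGG1 and HNRNPC added at adjusted p-values of 0.0342, 0.0496 and 0.0341 (edgeR), and 4487 genes in all; differences between a and b in control and in SNP correlated at 0.050 across genes, and the labels do not tie the letters together. The count over all genes, 3861, was 2415 with DESeq2's Wald test, 3303 with RPKM-implied totals, 2751 with the full offsets and 2447 to 4152 with 1 library left out (lowest without control b). With RPKM-implied totals 63.1% of the calls were higher, against 51.9%. The log2 fold change of NUDT1 turned to 0.0056 with those totals and 0.13 with length and GC offsets, was -0.53 with the full offsets, and ranged from -0.45 to 0.25 with 1 library left out; PCBP1 and PCBP2 turned to 0.15 and 0.012 with the offsets that include guanine minus cytosine. The cause of each change was not tested.

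List medians moved as follows. The mean-count filter gave 0.082 for the further glycosylases, and RPKM-implied totals gave -0.078 for them and 0.013 for the genes acting after them. Length and GC offsets gave 0.037 and 0.025 for these 2 lists, 0.19 for the oxidized RNA binders and relatives and 0.11 for ribosome rescue. Adding guanine minus cytosine gave -0.14 for the nucleotide pool, -0.18 for the further glycosylases, 0.050 for the oxidized RNA binders and relatives, 0.036 for the AU-rich element binders and 0.040 for ribosome rescue. With 1 library left out the medians ranged from -0.099 to -0.036 (further glycosylases), -0.12 to 0.029 (later repair), 0.17 to 0.38 (oxidized RNA binders and relatives), -0.15 to 0.029 (AU-rich element binders), 0.12 to 0.28 (ribosome rescue), -0.059 to 0.098 (nucleotide pool) and -0.19 to 0.12 (iron partners). The within-library log2 ratios kept their direction with 1 library left out except NUDT5 over NUDT1, which ranged from -0.48 to 0.0046.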

Other observations

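The long non-coding gene AC023509.1, which shares 1097 exonic bases with PCBP2 on the same strand, was counted 15 and 56 times in control and was listed at 0 in both libraries of the SNP group; it was singled out after its values were seen, and the division of reads between the pair is uncertain.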
